A study of Homo sapiens with 16 samples.

Results

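The genes described here are 10 members of the ERK pathway's transcriptional output and feedback: the dual-specificity phosphatases DUSP4, DUSP5 and DUSP6, the Sprouty and Spred proteins SPRY2, SPRY4, SPRED1 and SPRED2, and the ETS transcription factors ETV4, ETV5 and ETS1. They were taken by name from 22395 genes that had a probe set, the group of probes read as 1 value, with no other gene symbol. Each of the 10 had 1 such probe set and lay among the 15676 brighter genes that entered the tests. RNA levels were measured on 16 Affymetrix whole-transcript arrays, with total RNA from 2 human colon cancer cell lines, DLD1 and HCT116. Each line was used as a pair of derivatives made by gene targeting of PIK3CA, which encodes the catalytic p110-alpha subunit of phosphoinositide 3-kinase. The DLD1 Mut and HCT116 Mut cells had lost the wild-type allele and kept the mutant one, and the DLD1 WT and HCT116 WT cells had lost the mutant allele and kept the wild-type one. All 4 derivatives were grown for 24 h in DMEM that either contained or lacked glutamine (Gln), and all media held 10% dialyzed fetal bovine serum. The resulting 8 groups held 2 arrays each, labelled as biological replicates. Each combination of line and genotype is 1 derivative, so a difference between Mut and WT is also a difference between a pair of cell populations. Unmodified parental cells were not analysed here.

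Signals from growth factor receptors pass through RAS, RAF and MEK to the kinase ERK, which enters the nucleus and raises the transcription of a set of target genes. Several of these targets act back on the pathway: DUSP phosphatases remove the activating phosphates from ERK and related kinases, and Sprouty and Spred proteins act upstream, at the level of RAS and RAF. The PEA3-group factors ETV4 and ETV5 are themselves induced by ERK signalling, and ETS1 is phosphorylated and made more active by ERK. The RNA levels of such genes are widely used as readouts of the pathway, although ERK activity itself was not measured on these arrays.

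Promoter sequence was taken from RefSeq (GRCh38.p14), and windows of 5 of the 10 genes (DUSP6, SPRY2, SPRY4, SPRED1 and SPRED2) were used. Promoters of the other genes were not examined here, which does not mean that RefSeq lacks a start for them. The windows of DUSP6 and SPRED1, which rose in all 4 derivatives, and of SPRY2, which was called in none, are printed to set genes that responded beside 1 that did not. Each is the 250 bases before the annotated start, read 5′ to 3′ on the gene's own strand, and capitals mark the ETS core GGAA or its reverse complement TTCC.
DUSP6, minus strand, chr12:89352502-89352751: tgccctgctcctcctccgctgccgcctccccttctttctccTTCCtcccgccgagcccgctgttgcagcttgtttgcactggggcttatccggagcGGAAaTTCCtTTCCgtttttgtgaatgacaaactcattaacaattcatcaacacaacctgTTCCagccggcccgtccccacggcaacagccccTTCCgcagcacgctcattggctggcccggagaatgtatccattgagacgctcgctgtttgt
SPRED1, plus strand, chr15:38252586-38252835: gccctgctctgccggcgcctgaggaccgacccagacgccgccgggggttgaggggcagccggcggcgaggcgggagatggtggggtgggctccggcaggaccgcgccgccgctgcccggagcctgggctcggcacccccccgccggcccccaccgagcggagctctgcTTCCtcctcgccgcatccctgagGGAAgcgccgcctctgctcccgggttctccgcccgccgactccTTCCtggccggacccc
SPRY2, minus strand, chr13:80341127-80341376, the farthest upstream of its 3 windows: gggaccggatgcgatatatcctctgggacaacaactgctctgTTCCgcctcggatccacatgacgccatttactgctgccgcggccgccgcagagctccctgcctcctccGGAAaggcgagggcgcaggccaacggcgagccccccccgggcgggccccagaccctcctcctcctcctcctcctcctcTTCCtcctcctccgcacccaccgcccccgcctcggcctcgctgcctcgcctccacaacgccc
The DUSP6 window held 6 such cores, the SPRED1 window 3 and the printed SPRY2 window 3. Each of the other SPRY2 windows held 4, those of SPRED2 held 4 and 5, and that of SPRY4 held 2. Over 35116 windows of 250 bases the core was present on either strand in 92.7%, with a median of 3 and quartiles of 2 and 4. The longer ETS motif CCGGAAGT, the AP-1 motif TGACTCA and the cAMP response element TGACGTCA, each searched on both strands, were found in 3.42%, 4.2% and 1.65% of all windows and in none of the windows of these 5 genes. The only match to the amino acid response element TGATGNAA, present in 3.14% of all windows, was in the downstream one of SPRED2's pair of windows. A short motif of this kind can overlap others, and a match in letters is not a measured binding site.

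Array medians ranged from 3.57 to 3.70 in linear intensity, and upper quartiles from 19.9 to 22.7. Levels below are log2 of the deposited intensity, and a difference of 1 is a 2-fold change. Levels of different genes are not compared, since probe sets differ in brightness. The epithelial markers EPCAM (1390 to 2380 in linear intensity), CDH1 (421 to 3090) and KRT19 (652 to 1430) were bright on every array, while VIL1, CDX1 and KRT8 stayed at or below 9.29, 8.86 and 42. KRT18 ran from 66.9 to 138 and CDX2 from 38.2 to 282. Without glutamine CDX2 and VIL1 fell in DLD1 Mut (log2 change -0.92 ± 0.10 and -0.75 ± 0.17) and DLD1 WT cells (-1.20 ± 0.10 and -0.98 ± 0.17). Of the 8 epithelial markers 2 fell and 0 rose in each, where 16.8% and 13% of all tested genes fell. In HCT116 Mut cells 0 were called (32.9% of all tested genes), and in HCT116 WT cells 3 rose and 0 fell (10.3% and 10.1%). Of the markers of other cell types, 1 of 5 fibroblast, 1 of 6 leukocyte and 1 of 5 endothelial markers with a probe set was bright enough to test. The leukocyte antigens PTPRC and CD3E stayed at or below 3.16 in linear intensity on all arrays. ITGAM and LYZ stayed at or below 3.57 and 4.34, and CD14 ranged from 1.95 to 16, with a median of 2.34. The lysosomal protein CD68, the leukocyte marker that was tested, ranged from 23.1 to 219 and rose without glutamine in DLD1 WT, HCT116 Mut and HCT116 WT cells. Summed over its list, the leukocyte signal was 36 to 123 on the arrays with glutamine and 34.2 to 232 on those without. The corresponding sums were 15.3 to 18.8 and 13.4 to 22.9 for fibroblast markers, and 14.9 to 19.5 and 14.5 to 17.4 for endothelial markers.

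The comparison of media asked how these genes respond when glutamine is withdrawn. Averaged over the 4 derivatives 7 of the 10 genes rose and 0 fell, at a background of 47.7% of all tested genes called, 24.3% higher and 23.5% lower. They were DUSP4, DUSP5, DUSP6, SPRED1, SPRED2, ETV5 and ETS1, with rises from 1.38-fold (SPRED2) to 4.93-fold (ETS1). SPRY2, SPRY4 and ETV4 were not called, with average log2 changes of 0.04 ± 0.09, 0.03 ± 0.07 and -0.02 ± 0.07 (SE). DUSP5, DUSP6, SPRED1 and ETS1 rose in each of the 4 derivatives, by contrasts from 1 fit of all 16 arrays. That is 4 of 10, beside 3.54% of all tested genes (555) that rose in all 4. With the lines fitted separately, SPRED1 lost its call in HCT116 Mut and in HCT116 WT cells (limma, adjusted p = 0.109 and 0.0646). None of the 10 fell in all 4, against 3.67% of all tested genes (576). In RNA from whole cultures, a change in the share of cells that express a gene and a change in its RNA per cell cannot be told apart.

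**Figure D1:**
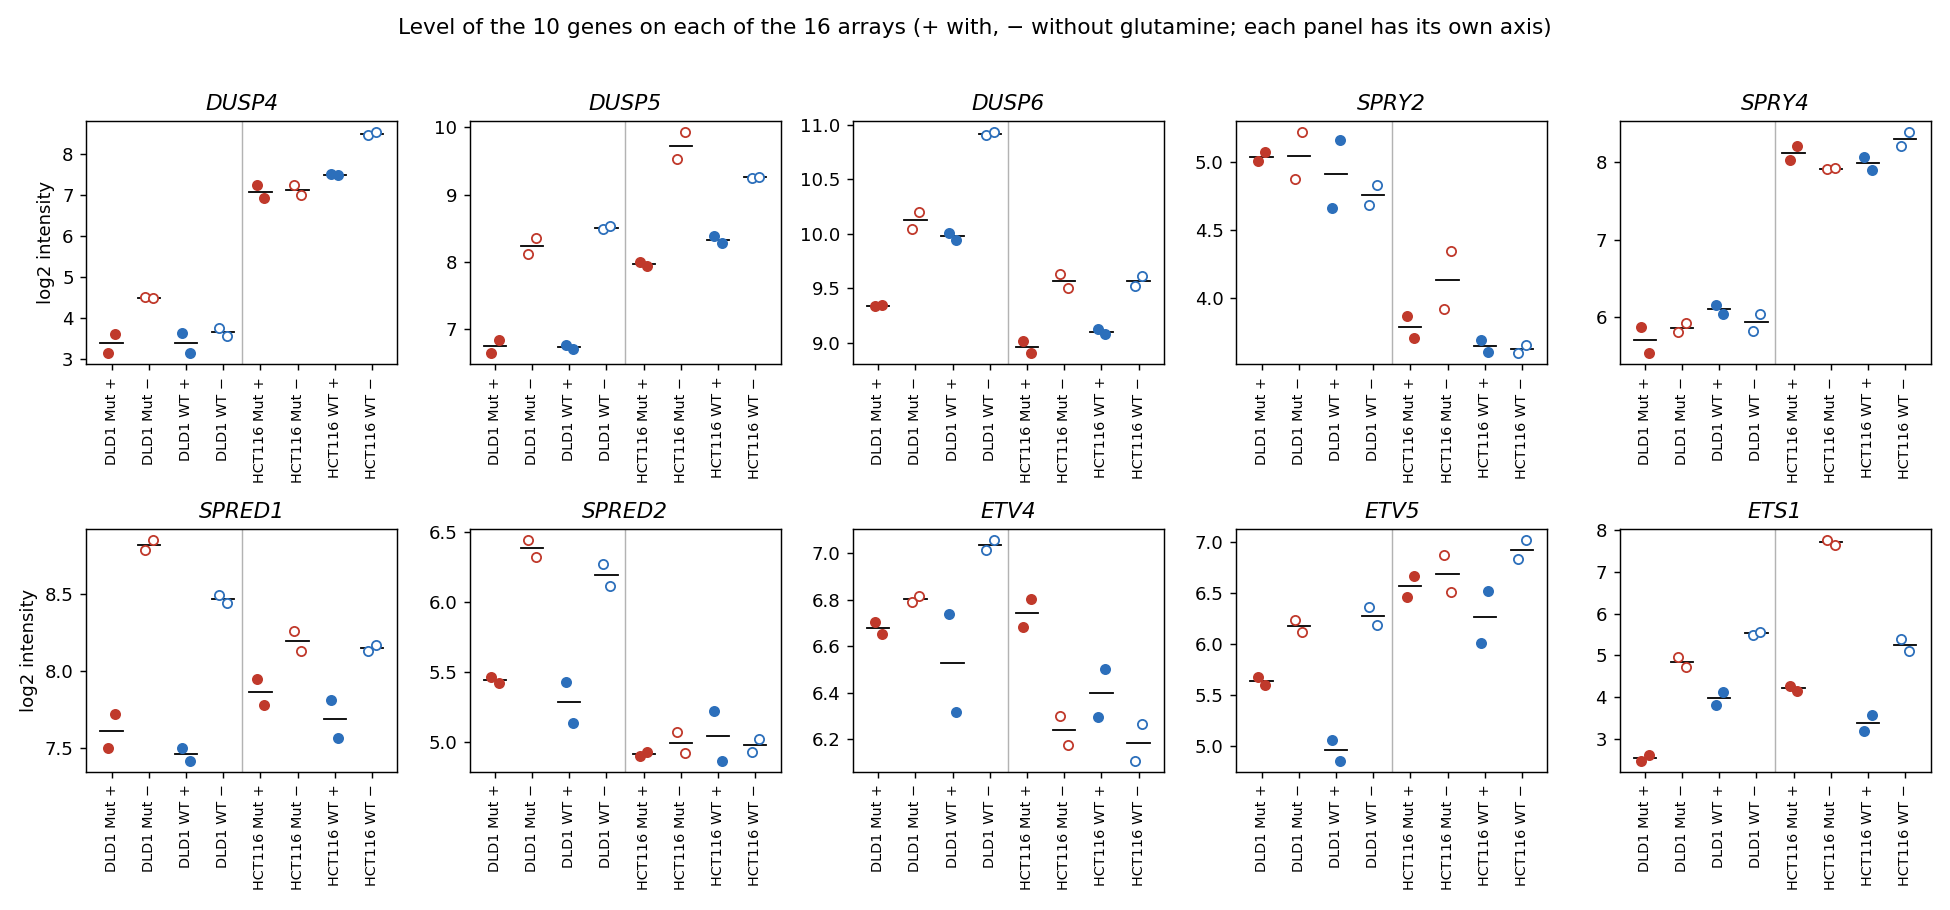
The log2 intensity of each gene on each of the 16 arrays, with 1 panel per gene and the 8 groups along the horizontal axis (+ with and − without glutamine; red Mut, blue WT; filled points with and open points without glutamine; black lines are group means of 2 arrays). DUSP4 and SPRY4 sat higher on all HCT116 arrays and SPRY2 on all DLD1 arrays, and ETS1 spanned 5.15 log2 units between its lowest and highest group mean.

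By derivative, 7 of the 10 genes rose in DLD1 Mut cells and 0 fell (33.6% of all tested genes were called, 16.8% higher and 16.8% lower), and 7 rose in DLD1 WT cells and 0 fell (27% called, 14% higher and 13% lower). In HCT116 Mut cells 4 rose and 1 fell (32.9% called, 16.4% higher and 16.5% lower), and in HCT116 WT cells 6 rose and 0 fell (20.3% called, 10.3% higher and 10.1% lower). The median log2 change over the 10 genes was 0.86 in DLD1 Mut and 0.92 in DLD1 WT cells, where the median of all tested genes was -0.03 and 0.01. For HCT116 the median over the 10 was 0.23 in Mut and 0.46 in WT cells, beside -0.00315 and 0.00933 for all tested genes. The same control arrays enter the derivative's own comparison and the average, so these counts are not independent of each other.

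**Figure D2:**
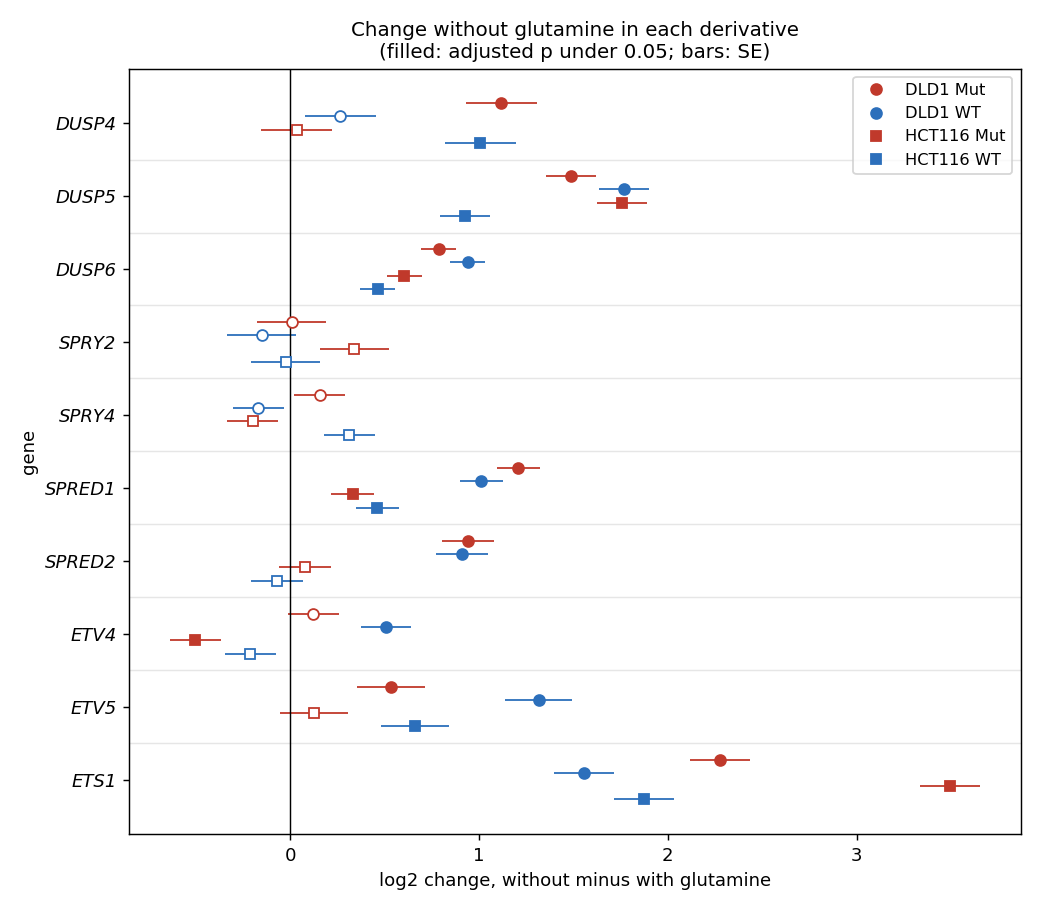
The log2 change without glutamine (horizontal axis) of each gene (vertical axis) in the 4 derivatives (circles DLD1, squares HCT116; red Mut, blue WT), with limma's SE as bars and filled symbols for an adjusted p under 0.05. DUSP5, DUSP6, SPRED1 and ETS1 have 4 filled symbols to the right of 0, and SPRY2 and SPRY4 have none.

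Among these 3 phosphatases DUSP5, a nuclear phosphatase specific for ERK, had the largest average rise. In DLD1 Mut cells its level was 6.65 and 6.85 on the arrays with glutamine and 8.11 and 8.35 on those without. In DLD1 WT cells it was 6.77 and 6.71 with and 8.49 and 8.53 without. The HCT116 Mut values were 8.0 and 7.94 with and 9.53 and 9.92 without, and in HCT116 WT cells 8.38 and 8.28 with and 9.25 and 9.26 without. Both arrays without glutamine lay above both arrays with it in every derivative, and the 2 DLD1 groups with glutamine were the lowest of all 8. The rise was 2.8-fold in DLD1 Mut (log2 change 1.49 ± 0.13, limma, adjusted p = 1.73e-05), 3.4-fold in DLD1 WT (1.77 ± 0.13, adjusted p = 1.19e-05), 3.38-fold in HCT116 Mut (1.76 ± 0.13, adjusted p = 7.74e-06) and 1.9-fold in HCT116 WT cells (0.93 ± 0.13, adjusted p = 0.000764).

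DUSP6, the cytoplasmic ERK phosphatase, was bright on every array and rose by less. Its level in DLD1 Mut cells went from 9.33 and 9.34 with glutamine to 10.04 and 10.20 without, and in DLD1 WT cells from 10.01 and 9.95 to 10.91 and 10.93. The HCT116 Mut level went from 9.02 and 8.90 to 9.63 and 9.50, and in HCT116 WT cells from 9.12 and 9.08 to 9.52 and 9.61. No array with glutamine overlapped the arrays without it in the same derivative. Replicates differed by at most 0.16 for this gene. The rises were 1.72-fold in DLD1 Mut (0.79 ± 0.09, adjusted p = 9.26e-05), 1.92-fold in DLD1 WT (0.94 ± 0.09, adjusted p = 4.63e-05), 1.52-fold in HCT116 Mut (0.60 ± 0.09, adjusted p = 0.000551) and 1.38-fold in HCT116 WT cells (0.46 ± 0.09, adjusted p = 0.00508).

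DUSP4, a nuclear phosphatase that acts on ERK and other MAP kinases, rose in 1 derivative of each line, and the genotype of that derivative differed. Its DLD1 Mut level was 3.15 and 3.60 with glutamine and 4.50 and 4.49 without, and its DLD1 WT level 3.62 and 3.14 with and 3.74 and 3.54 without. The HCT116 Mut level was 7.25 and 6.93 with and 7.24 and 7.01 without, and in HCT116 WT cells 7.51 and 7.49 with and 8.47 and 8.54 without. The arrays of the 2 media overlapped in DLD1 WT and HCT116 Mut cells and were apart in the other 2 derivatives. In linear intensity the DLD1 arrays read only 8.8 to 22.6. The rise was 2.17-fold in DLD1 Mut (1.12 ± 0.19, adjusted p = 0.000985) and 2.01-fold in HCT116 WT cells (1.01 ± 0.19, adjusted p = 0.00375). In DLD1 WT and HCT116 Mut cells the log2 change was 0.26 ± 0.19 and 0.04 ± 0.19 (adjusted p = 0.349 and 0.914), with 95% intervals of -0.15 to 0.68 and -0.38 to 0.45.

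Of the Sprouty and Spred genes, SPRED1, whose protein brings the RAS-inactivating neurofibromin to the membrane, rose in all 4 derivatives and more in DLD1. In DLD1 Mut cells its level was 7.50 and 7.72 with glutamine and 8.79 and 8.85 without, and in DLD1 WT cells 7.50 and 7.42 with and 8.50 and 8.45 without. Values in HCT116 Mut cells were 7.95 and 7.78 with and 8.26 and 8.13 without, and in HCT116 WT cells 7.81 and 7.56 with and 8.13 and 8.17 without. No arrays of the 2 media overlapped, but in HCT116 the gap between the nearest arrays was small beside that in DLD1. SPRED1 rose 2.31-fold in DLD1 Mut (1.21 ± 0.11, adjusted p = 2.54e-05) and 2.02-fold in DLD1 WT cells (1.01 ± 0.11, adjusted p = 0.000116), against 1.26-fold in HCT116 Mut (0.33 ± 0.11, adjusted p = 0.0474) and 1.38-fold in HCT116 WT cells (0.46 ± 0.11, adjusted p = 0.0165). The HCT116 Mut call was lost (adjusted p up to 0.237) without any 1 of 12 arrays, that is, all but those of DLD1 Mut and HCT116 WT cells with glutamine, and also with no filter on dim genes (0.0757) and with the lines fitted separately (0.109). The HCT116 WT call was lost without replicate 2 with glutamine or either array without it (adjusted p up to 0.126), and with separate fits (0.0646).

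SPRED2, a related inhibitor of RAS to ERK signalling, rose in DLD1 cells of both genotypes. Its DLD1 Mut level was 5.46 and 5.42 with glutamine and 6.44 and 6.32 without, and its DLD1 WT level 5.43 and 5.14 with and 6.27 and 6.11 without. The 8 HCT116 arrays lay between 4.86 and 5.22, and the 2 media overlapped there. The rise was 1.92-fold in DLD1 Mut (0.94 ± 0.14, adjusted p = 0.00037) and 1.88-fold in DLD1 WT cells (0.91 ± 0.14, adjusted p = 0.000697). In HCT116 Mut and WT cells the log2 changes were 0.08 ± 0.14 and -0.07 ± 0.14 (adjusted p = 0.719 and 0.789), with 95% intervals of -0.22 to 0.38 and -0.37 to 0.23.

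SPRY2 and SPRY4, which are induced by receptor signalling and dampen it, were called in no derivative. SPRY2 lay between 4.66 and 5.21 on the 8 DLD1 arrays and between 3.60 and 4.34 on the 8 HCT116 arrays. Its largest log2 change was 0.34 ± 0.18 in HCT116 Mut cells (adjusted p = 0.194), where the levels were 3.87 and 3.71 with glutamine and 3.92 and 4.34 without. SPRY4 lay between 5.54 and 6.16 on the DLD1 arrays and between 7.89 and 8.38 on the HCT116 arrays. Its log2 change was 0.16 ± 0.14 in DLD1 Mut, -0.17 ± 0.14 in DLD1 WT, -0.20 ± 0.14 in HCT116 Mut and 0.31 ± 0.14 in HCT116 WT cells (adjusted p = 0.437, 0.408, 0.313 and 0.136). For both genes the arrays separated by line in either medium. In HCT116 WT cells the SPRY4 arrays of the 2 media did not overlap (8.06 and 7.89 with, 8.20 and 8.38 without), and the 95% interval of the change was 0.01 to 0.61, but it did not pass the adjusted threshold. The intervals of the average change were -0.16 to 0.25 for SPRY2 and -0.12 to 0.18 for SPRY4.

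ETS1, the founding member of the ETS family, had the largest rise of the 10 in DLD1 Mut, HCT116 Mut and HCT116 WT cells and on average. Its DLD1 Mut level was 2.49 and 2.63 with glutamine and 4.96 and 4.71 without, and its DLD1 WT level 3.82 and 4.12 with and 5.50 and 5.56 without. In HCT116 Mut cells it was 4.27 and 4.15 with and 7.76 and 7.65 without, and in HCT116 WT cells 3.19 and 3.57 with and 5.40 and 5.11 without. All 8 arrays without glutamine were above all 8 with it, and the highest were those of HCT116 Mut cells. The DLD1 Mut arrays with glutamine read only 5.6 and 6.18 in linear intensity. ETS1 rose 4.85-fold in DLD1 Mut (2.28 ± 0.16, adjusted p = 4.53e-06), 2.94-fold in DLD1 WT (1.56 ± 0.16, adjusted p = 6.34e-05), 11.3-fold in HCT116 Mut (3.49 ± 0.16, adjusted p = 6.62e-07) and 3.67-fold in HCT116 WT cells (1.88 ± 0.16, adjusted p = 2.8e-05). In HCT116 Mut cells its rise was number 3 in size among the 15676 tested genes, and on average over the derivatives number 10. In order of mean level the 8 groups were HCT116 Mut without glutamine, DLD1 WT without, HCT116 WT without, DLD1 Mut without, HCT116 Mut with, DLD1 WT with, HCT116 WT with and DLD1 Mut with. No neighbours in that order overlapped.

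ETV5, a PEA3-group factor, was higher without glutamine in 3 derivatives. Its DLD1 Mut level was 5.68 and 5.60 with glutamine and 6.24 and 6.12 without, and its DLD1 WT level 5.06 and 4.86 with and 6.37 and 6.19 without. The HCT116 Mut arrays were at 6.46 and 6.67 with and 6.87 and 6.51 without, and in HCT116 WT cells 6.01 and 6.52 with and 6.83 and 7.02 without. DLD1 WT cells with glutamine held the 2 lowest arrays, and only in HCT116 Mut cells did the media overlap. The rise was 1.45-fold in DLD1 Mut (0.54 ± 0.18, adjusted p = 0.0407), 2.49-fold in DLD1 WT (1.32 ± 0.18, adjusted p = 0.000375) and 1.58-fold in HCT116 WT cells (0.66 ± 0.18, adjusted p = 0.0251), and in HCT116 Mut cells the log2 change was 0.13 ± 0.18 (adjusted p = 0.654). The DLD1 Mut call was lost (adjusted p up to 0.169) without any 1 of the 4 DLD1 Mut arrays or of the 2 DLD1 WT arrays without glutamine, and with no filter (0.057). The HCT116 WT call was lost without replicate 1 with glutamine, where the log2 change was 0.40, or either array without it (adjusted p up to 0.184), and with the lines fitted separately (0.0955).

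ETV4, the other PEA3-group factor here, was called in opposite directions in the 2 lines. In DLD1 Mut cells its level was 6.70 and 6.65 with glutamine and 6.79 and 6.81 without, and in DLD1 WT cells 6.74 and 6.32 with and 7.01 and 7.06 without. HCT116 Mut cells were at 6.68 and 6.80 with and 6.30 and 6.18 without, and in HCT116 WT cells 6.30 and 6.50 with and 6.11 and 6.26 without. The arrays without glutamine were the higher ones in both DLD1 derivatives and the lower ones in both HCT116 derivatives. ETV4 rose 1.42-fold in DLD1 WT (0.51 ± 0.13, adjusted p = 0.0173) and had a log2 change of -0.50 ± 0.13 in HCT116 Mut cells (adjusted p = 0.0147). In DLD1 Mut and HCT116 WT cells the log2 change was 0.12 ± 0.13 and -0.21 ± 0.13 (adjusted p = 0.555 and 0.322). The DLD1 WT call was lost without replicate 2 with glutamine, where the log2 change was 0.30, or either array without it (adjusted p up to 0.134). The HCT116 Mut call was lost without replicate 2 of either medium (adjusted p up to 0.0895).

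The test of the difference between lines compared the mean response of the 2 DLD1 derivatives with that of the 2 HCT116 derivatives. Of the 10 genes 4 responded higher in DLD1 and 1 lower, where 19% of all tested genes differed, 10% higher and 8.93% lower. SPRED2 differed most (log2 difference 0.92 ± 0.14, limma, adjusted p = 0.00124), followed by SPRED1 (0.71 ± 0.11, adjusted p = 0.00197), ETV4 (0.67 ± 0.13, adjusted p = 0.00644) and DUSP6 (0.33 ± 0.09, adjusted p = 0.0302). The mean response of ETS1 was smaller in DLD1 (-0.77 ± 0.16, adjusted p = 0.00775). By derivative it was 2.28 in DLD1 Mut, 1.56 in DLD1 WT, 3.49 in HCT116 Mut and 1.88 in HCT116 WT cells, so only HCT116 Mut lay above both DLD1 derivatives. For DUSP4, DUSP5 and ETV5 the differences were 0.17 ± 0.19, 0.28 ± 0.13 and 0.53 ± 0.18 (adjusted p = 0.588, 0.173 and 0.0633). The DUSP6 difference lost its call without any 1 of 11 arrays (adjusted p up to 0.0715) and with no filter on dim genes (0.0569). It kept its call only without DLD1 WT with glutamine replicate 1, DLD1 Mut without glutamine replicate 1, HCT116 Mut with glutamine replicate 2, HCT116 Mut without glutamine replicate 1 or HCT116 WT without glutamine replicate 2. DUSP5 was called without HCT116 Mut without glutamine replicate 2 (0.38, adjusted p = 0.0483), and ETV5 without HCT116 WT with glutamine replicate 1 (0.66) or HCT116 Mut without glutamine replicate 1 (0.62).

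With glutamine present, 9 of the 10 genes differed between the lines, 3 higher and 6 lower in DLD1, at a background of 47% of all tested genes (24.5% higher and 22.5% lower). DUSP4 was 15.1-fold lower in DLD1 (log2 difference -3.92 ± 0.13, limma, adjusted p = 2.44e-09), number 71 in size among genes lower in DLD1, and SPRY4 4.39-fold lower (-2.14 ± 0.10, adjusted p = 1.8e-08). The DUSP4 arrays of DLD1 with glutamine read 8.8 to 12.27 in linear intensity, below the lowest array upper quartile of 19.9. DUSP5 (-1.40 ± 0.09), ETV5 (-1.11 ± 0.13), ETS1 (-0.53 ± 0.11) and SPRED1 (-0.24 ± 0.08) were also lower in DLD1. SPRY2 (1.25 ± 0.13), DUSP6 (0.63 ± 0.06) and SPRED2 (0.38 ± 0.10) were higher in DLD1, and ETV4 was not called (0.03 ± 0.10, adjusted p = 0.811). The SPRED1 difference (adjusted p = 0.0309) was lost without DLD1 Mut replicate 1, DLD1 WT replicate 2, HCT116 Mut replicate 1 or HCT116 WT replicate 1, all with glutamine (adjusted p up to 0.119). For DUSP4, SPRY4 and SPRY2 the 2 lines did not overlap on any array in either medium.

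The comparison of genotypes asked how cells that kept the mutant PIK3CA allele differ from those that kept the wild-type one. With glutamine, 2 of the 10 genes were called in DLD1 and 1 in HCT116, where 5.81% (2.6% higher in Mut cells and 3.2% lower) and 3.23% (1.12% higher and 2.12% lower) of all tested genes were. In DLD1, DUSP6 was lower in Mut cells (log2 difference -0.64 ± 0.09, limma, adjusted p = 0.00213), and so was ETS1 (-1.42 ± 0.16, adjusted p = 0.000501). The ETS1 arrays of these DLD1 Mut cells read 5.6 and 6.18 in linear intensity, where array medians were 3.57 to 3.70. In HCT116, ETS1 was higher in Mut cells (0.84 ± 0.16, adjusted p = 0.0187), and the difference of DUSP6 was -0.14 ± 0.09 (adjusted p = 0.5). The HCT116 call of ETS1 was lost without either HCT116 Mut array or HCT116 WT replicate 1 with glutamine (adjusted p up to 0.14), and with the lines fitted separately (0.102). ETV5 in DLD1 just missed the threshold (0.68 ± 0.18, adjusted p = 0.0539), with Mut arrays at 5.68 and 5.60 above WT arrays at 5.06 and 4.86. It was called without any 1 of 4 HCT116 arrays, WT with glutamine replicate 1 or 2 and Mut without glutamine replicate 1 or 2 (lowest adjusted p 0.0281).

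Without glutamine, 1 gene was higher and 2 lower in DLD1 Mut than WT cells (10.3% of all tested genes called, 4.36% higher and 5.91% lower), and 2 were higher and 1 lower in HCT116 Mut than WT cells (24.6% called, 12.3% higher and 12.4% lower). ETS1 kept opposite signs in the 2 lines, at -0.70 ± 0.16 in DLD1 (adjusted p = 0.0206) and 2.45 ± 0.16 in HCT116 (5.48-fold, adjusted p = 8.75e-06). DUSP4 also had opposite signs, higher in DLD1 Mut cells (0.85 ± 0.19, adjusted p = 0.0173) and lower in HCT116 Mut cells (-1.38 ± 0.19, adjusted p = 0.000485). DUSP6 remained lower in DLD1 Mut cells (-0.79 ± 0.09, adjusted p = 0.000532) and did not separate in HCT116 (0.00128 ± 0.09, adjusted p = 0.995), where the 95% interval was -0.20 to 0.20. DUSP5 was higher in HCT116 Mut cells (0.47 ± 0.13, adjusted p = 0.0253).

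**Figure D3:**
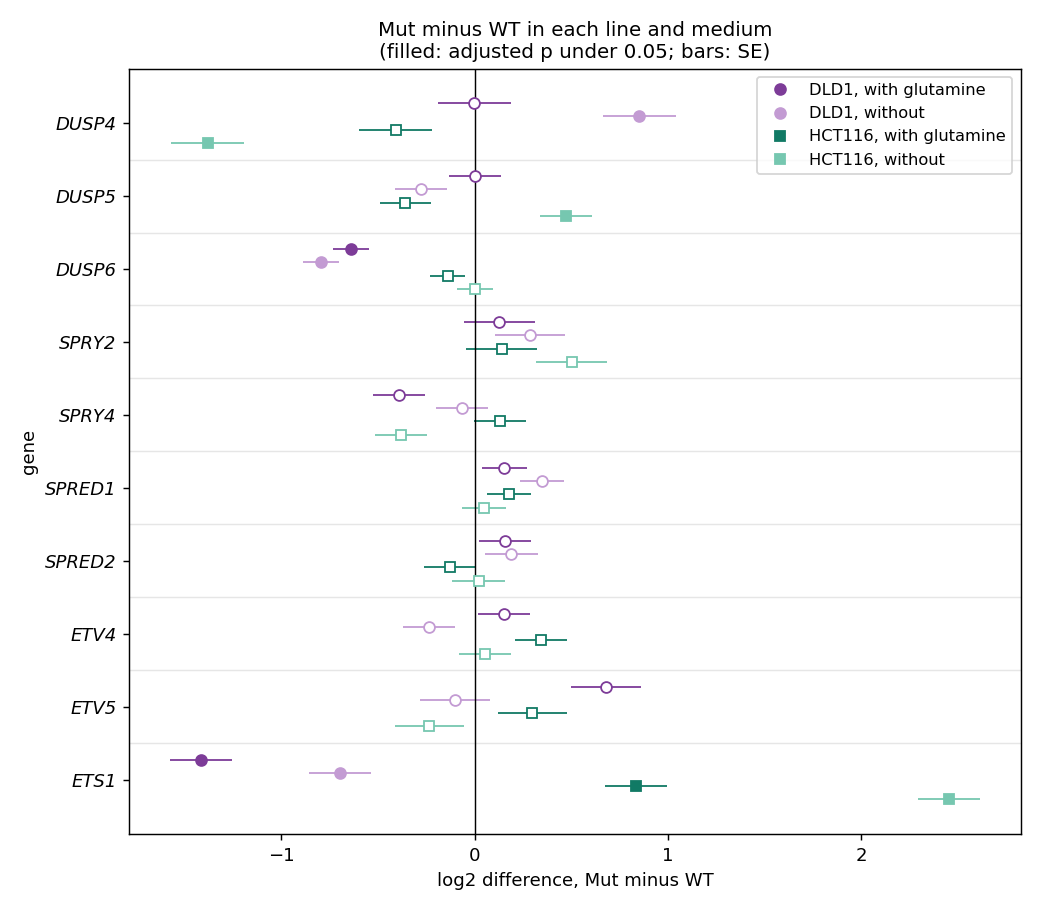
The log2 difference Mut minus WT (horizontal axis) of each gene (vertical axis) with and without glutamine in DLD1 (circles) and HCT116 (squares), with limma's SE as bars and filled symbols for an adjusted p under 0.05. ETS1 has all 4 symbols filled, those of DLD1 below 0 and those of HCT116 above it, and the symbols of DUSP4 without glutamine lie on opposite sides of 0.

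Several of these calls were lost without 1 array. In DLD1 without glutamine, DUSP4 lost its call without any 1 of the 4 arrays compared (adjusted p up to 0.113) and with the lines fitted separately (0.066), and ETS1 without DLD1 Mut replicate 2 or either WT array (up to 0.131). In HCT116, DUSP5 was lost without Mut replicate 2, where the log2 difference was 0.28, or either WT array (adjusted p up to 0.197), and with separate fits (0.073). SPRY2 (0.50 ± 0.18, adjusted p = 0.071) and SPRY4 (-0.38 ± 0.14, adjusted p = 0.0659) were just outside the threshold in HCT116 without glutamine. SPRY2 was called without either DLD1 WT array with glutamine or HCT116 Mut replicate 1 without it (0.72), and SPRY4 without either DLD1 Mut array with glutamine.

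The interaction asked whether the change without glutamine differed between Mut and WT cells of a line. In HCT116, 3 of the 10 genes were called, at a background of 9.49% of all tested genes (4.75% higher and 4.75% lower). The response of ETS1 was larger in Mut than in WT cells by 1.62 ± 0.23 on the log2 scale (limma, adjusted p = 0.00222), and that of DUSP5 by 0.83 ± 0.19 (adjusted p = 0.0216). The response of DUSP4 was smaller in Mut cells (-0.97 ± 0.27, adjusted p = 0.0466). Without the arrays named next, the last 2 calls were lost. For DUSP5 these were HCT116 Mut replicate 2 or WT replicate 1 with glutamine, or HCT116 Mut replicate 2 or either WT array without it (adjusted p up to 0.0718), and the call was also lost with separate fits (0.0907). For DUSP4 it was any 1 of 11 arrays, all but the 4 DLD1 arrays with glutamine and HCT116 Mut replicate 2 with glutamine (adjusted p up to 0.138), and also no filter (0.0666), arrays shifted to the same median (0.0505) or separate fits (0.0649).

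In DLD1 the interaction was called for 0 of the 10 genes by limma, at a background of 0.823% of all tested genes (0.255% higher and 0.568% lower), and each of the 26 other settings, the 16 runs without 1 array among them, also gave 0. At an unadjusted p under 0.05 there were 3 genes, DUSP4 (0.85 ± 0.27, adjusted p = 0.166), ETV5 (-0.78 ± 0.25, adjusted p = 0.181) and ETS1 (0.72 ± 0.23, adjusted p = 0.167). The DUSP4 interaction thus had opposite signs in the lines, and the difference between them, tested after its values had been seen, was 1.82 ± 0.38 (adjusted p = 0.0357; 2.13% of all tested genes were called). It stayed between 1.58 and 2.06 without each array in turn but was called in only 3 of those 16 runs, without replicate 2 of DLD1 Mut, DLD1 WT or HCT116 Mut cells with glutamine (adjusted p up to 0.0921). For ETS1 the corresponding difference was -0.90 ± 0.32 (adjusted p = 0.19) and for DUSP5 -1.11 ± 0.27 (adjusted p = 0.0625), which was called without HCT116 Mut replicate 1 without glutamine (0.0287).

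Whether the genotype difference itself differed between the lines was tested after these values had been seen, as Mut minus WT in DLD1 less the same in HCT116. With glutamine 1 of the 10 genes was called, where 3.53% of all tested genes were, and without glutamine 4, where 13.8% were. ETS1 differed in both media, by -2.25 ± 0.23 with glutamine (limma, adjusted p = 0.000383) and by -3.15 ± 0.23 without (adjusted p = 3.31e-05). DUSP4 differed without glutamine, by 2.23 ± 0.27 (adjusted p = 0.000466), and DUSP6 by -0.80 ± 0.13 (adjusted p = 0.00269). These 4 calls held in all 16 runs without 1 array, with adjusted p up to 0.00305, 0.000281, 0.00322 and 0.0137. The DUSP5 difference without glutamine (-0.75 ± 0.19, adjusted p = 0.0241) was lost without DLD1 Mut replicate 1, HCT116 Mut replicate 2 or any WT array of either line in that medium (adjusted p up to 0.0894). For DUSP6 with glutamine the difference was -0.50 ± 0.13 (adjusted p = 0.0668).

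**Figure D4:**
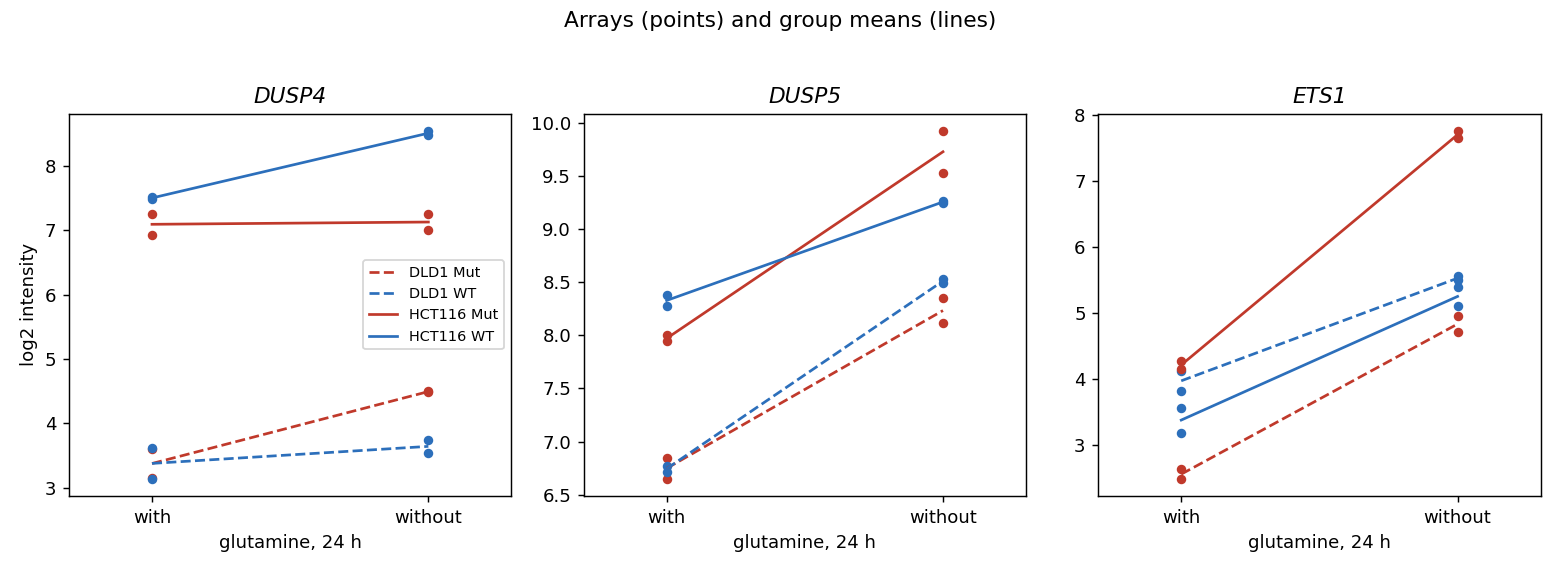
The log2 intensity of DUSP4, DUSP5 and ETS1 (vertical axes) with and without glutamine for 24 h (horizontal axes), with points for arrays and lines between group means of 2 arrays (dashed DLD1, solid HCT116; red Mut, blue WT). The DUSP4 line rises in DLD1 Mut and HCT116 WT cells, the DUSP5 lines of HCT116 cross, and the steepest ETS1 line is that of HCT116 Mut cells.

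Across the 16 arrays the levels of DUSP4 and SPRY4 ran together (Pearson r = 0.962), and both ran opposite to SPRY2 (r = -0.931 and -0.946). Within the lines these relations did not all hold, and DUSP4 with SPRY4 had r = -0.20 over the 8 DLD1 and 0.67 over the 8 HCT116 arrays. In the same order DUSP4 with SPRY2 had 0.0335 and -0.564, and SPRY4 with SPRY2 had -0.264 and -0.501. DUSP5 and DUSP6 had r = 0.0553 over all arrays but 0.821 within DLD1 and 0.932 within HCT116, and DUSP6 with ETS1 had 0.943 and 0.762 within the lines. SPRED1 and SPRED2 had r = 0.977 within DLD1 and 0.178 within HCT116. ETV4 ran with DUSP5 in DLD1 (r = 0.782) and opposite to it in HCT116 (r = -0.836). All genes were read on the same arrays, which fall into groups by line and medium, so these values describe the groups and carry no test.

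Outside the 10, the genes whose levels followed a member most closely over the 16 arrays were found for each. For DUSP4 they were GNG7 (r = 0.985) and ENOX1 (0.983), for SPRY4 GRIN2D (0.995) and LPAR3 (0.991), and for SPRY2 KDM7A-DT (0.973) and ZNF814 (0.969). For DUSP5 they were RAPGEF1 (0.986) and NRSN2-AS1 (0.977), for DUSP6 PDE5A (0.95) and PTPN9 (0.94), for SPRED1 AKAP8L (0.969) and DUSP11 (0.968), and for SPRED2 APLF (0.967) and CMKLR2 (0.965). ETS1 was followed by CHD2 (0.962) and ETV3 (0.959), itself an ETS-family gene, ETV5 by MTHFD2 (0.95) and RAB6A (0.945), and ETV4, with the lowest likeness of the 10, by KLK10 (0.912) and EDF1 (0.89).

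The rest of the pathway was read from 6 further gene lists, whose counts on average stand beside the 24.3% of all tested genes called higher and 23.5% called lower. Of the 7 other MAP kinase phosphatases, 4 rose and 1 fell on average without glutamine (list median 0.51, all tested genes -0.00418). DUSP1, an early-induced nuclear phosphatase (1.55 ± 0.07, limma, adjusted p = 6.44e-08), and DUSP8, which acts mainly on stress-activated kinases (0.91 ± 0.05), rose, and DUSP2 had a log2 change of -0.76 ± 0.10. In HCT116 Mut cells 5 rose and 1 fell, and in HCT116 WT cells 1 rose and 1 fell. Of all tested genes, 16.4% rose and 16.5% fell in HCT116 Mut cells, and 10.3% rose and 10.1% fell in HCT116 WT cells. The interaction in HCT116 was called higher for 4 of 7 and lower for 0, among them DUSP1 (1.67 ± 0.21) and DUSP8 (1.44 ± 0.13), and in DLD1 for 0 of 7. Over all tested genes the interaction was called higher for 4.75% and lower for 4.75% in HCT116, and for 0.823% in DLD1. DUSP7 and DUSP2 fell in both DLD1 derivatives, DUSP7 by 0.83 in DLD1 Mut and by 0.73 in DLD1 WT cells on the log2 scale. DUSP2 also fell in HCT116 WT cells (-0.88 ± 0.19), and DUSP7 rose in HCT116 Mut cells (0.66 ± 0.12).

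Of 14 tested members among the other inhibitors of receptor, RAS and ERK signalling, 6 rose and 3 fell on average (list median 0.09), and the lower count is near the background share. The EGF receptor inhibitor ERRFI1 (0.84 ± 0.04) and the ERK-binding protein PEA15 (0.75 ± 0.04) rose, and the RAF kinase inhibitor protein PEBP1 (-0.46 ± 0.05) and LRIG3 (-0.62 ± 0.08) fell. IL17RD, also called Sef, which holds activated ERK outside the nucleus, fell in DLD1 Mut (-1.10 ± 0.13) and DLD1 WT cells (-0.81 ± 0.13) and rose in HCT116 WT cells (0.59 ± 0.13), with -0.33 ± 0.13 in HCT116 Mut cells (adjusted p = 0.072). Its response was lower in DLD1 than in HCT116 by a tested difference of -1.09 ± 0.13 (adjusted p = 0.000349). Without glutamine it was lower in Mut than WT cells of both lines, at -1.09 ± 0.13 in DLD1 and -1.51 ± 0.13 in HCT116. With glutamine, SPRY1 was higher in DLD1 than HCT116 (2.06 ± 0.12), as SPRY2 was.

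Among 18 tested members of the other ETS factors, 6 rose and 2 fell on average (list median 0.13), no larger a share called than the 47.7% of all tested genes. The epithelial factor ELF3 (0.65 ± 0.07) and ELF4 (0.51 ± 0.06) rose, and the epithelial factor EHF (-0.81 ± 0.05) and the ETS repressor ERF (-0.39 ± 0.13) fell. ELK3, a ternary complex factor, fell in DLD1 Mut (-0.77 ± 0.12) and DLD1 WT cells (-0.85 ± 0.12) and rose in HCT116 Mut (1.28 ± 0.12) and HCT116 WT cells (0.87 ± 0.12), with a difference between the lines of -1.89 ± 0.12 (adjusted p = 2.37e-05). EHF fell by 1.5 in DLD1 Mut, by 1.17 in HCT116 Mut and by 0.40 in DLD1 WT cells on the log2 scale, and its change in HCT116 WT cells was -0.15 ± 0.11 (adjusted p = 0.379). Its interaction was called lower in DLD1 (-1.10 ± 0.15, adjusted p = 0.0135) and in HCT116 (-1.02 ± 0.15, adjusted p = 0.003). ETV1, the PEA3-group factor not among the 10, was lower in DLD1 Mut than WT cells with (-1.72 ± 0.20) and without glutamine (-2.40 ± 0.20), and in HCT116 it was lower in Mut cells without glutamine (-0.74 ± 0.20, adjusted p = 0.0233).

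Upstream, 5 of 6 tested members of the EGF receptor family and its ligands rose on average and 1 fell (list median 0.74). EGFR (1.15 ± 0.06) and its ligand epiregulin, EREG (0.49 ± 0.04), rose, and the kinase-impaired receptor ERBB3 (-0.40 ± 0.06) fell. Of 15 tested members of the core from RAS to ERK, 5 rose and 4 fell (list median 0.06), near the background in both directions. The RAS exchange factor SOS2 (1.5 ± 0.09) and the RAF-activating scaffold SHOC2 (0.75 ± 0.05) rose, and MAPK3, which encodes ERK1 (-0.44 ± 0.06), and the ERK-activated kinase RPS6KA1 (-0.25 ± 0.05) fell. Of 18 tested members of the other ERK output genes, 11 rose and 1 fell on average (list median 0.30). The receptor EPHA2 (1.24 ± 0.05) and the transcription factor KLF6 (1.47 ± 0.08) rose, and EPHA4 fell (-0.44 ± 0.13). By derivative the list median was -0.02 in DLD1 Mut, 0.46 in DLD1 WT, 0.61 in HCT116 Mut and 0.33 in HCT116 WT cells. In DLD1 Mut cells 7 rose and 3 fell, where 16.8% of all tested genes rose and 16.8% fell. IER3 fell in DLD1 Mut (-1.04 ± 0.09) and DLD1 WT cells (-0.38 ± 0.09), and its response was lower in DLD1 than in HCT116 (-1.19 ± 0.09). In DLD1 the proto-oncogene MYC fell in Mut (-0.32 ± 0.09) and WT cells (-0.49 ± 0.09) while DUSP5, DUSP6 and ETS1 rose in both. MYC rose in HCT116 Mut cells (0.61 ± 0.09) and was not called in HCT116 WT cells (-0.15 ± 0.09, adjusted p = 0.295).

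**Figure D5:**
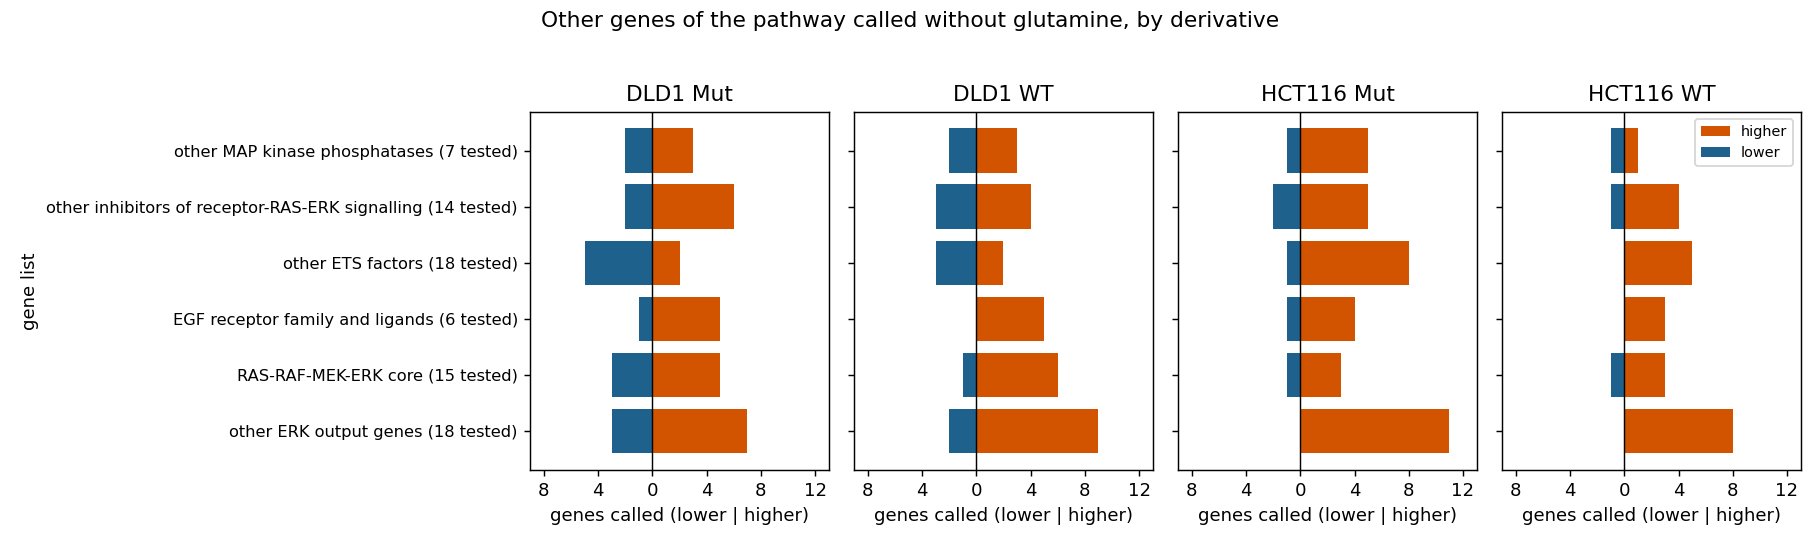
The number of genes called higher (orange, to the right) and lower (blue, to the left) without glutamine in each derivative, for 6 lists of other pathway genes (vertical axis, with the number tested). In HCT116 WT cells 1 of the 7 other MAP kinase phosphatases was called higher, against 5 in HCT116 Mut cells, and the other ERK output genes had 11 called higher and 0 lower in HCT116 Mut cells. Of all tested genes 10.3% were called higher in HCT116 WT cells, and 16.4% higher and 16.5% lower in HCT116 Mut cells.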

How the data were processed

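RNA from 16 cultures was measured, 1 array each. The deposited table holds 1 linear intensity for each of 53617 probe sets per array, which the authors obtained from biotin-labelled targets made with the Affymetrix whole-transcript protocol, per the labels. Neither the software nor the normalization behind these values is named (not given in the sources used here), and no detection call was used, so low levels have no stated limit. The number of arrays limits the precision.

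Log2 was taken with no pseudocount. Probe sets with exactly 1 symbol (23871) were used, the brightest for each of 22395 genes, and the upper 70% by mean level (15676) were tested. A single limma 3.58.1 fit in R 4.3.3 (lmFit, eBayes) of 8 group means gave 13 contrasts and, added after values had been seen, the differences between the lines in the interaction and in Mut minus WT. Its residual degrees of freedom were 8 and the prior ones 2.49. A gene was called at an adjusted p under 0.05 (Benjamini-Hochberg, across every gene tested). Errors are SE from that fit, and a fold is the antilog (base 2) of the size of the log2 change. The p-values measure the spread between cultures of 1 derivative per line and genotype.

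The members, gene lists and comparisons were chosen with earlier results of these data known. From each list up to 2 called genes with the smallest adjusted p per direction and contrast could be named, and a selection is given. For some genes named in this way (DUSP7, IL17RD, EHF, ETV1 and MYC), values in further contrasts were added outside this rule, whether called or not. Likeness is Pearson's r, with the top 2 genes named per member. Alternatives were other filters, scalings, probe set means, a replicate block, trend and robust eBayes, separate lines, a 2-fold minimum and leaving out each array. Leaving out an array left its group with a single array. In comparisons without that group the log2 change stayed the same. A call could be lost or gained there only through the shared estimate of the spread and the adjustment over all genes.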

Additional observations from a re-analysis of the deposited data

Results flagged for a closer look

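Of the 10 genes, 5 had responses to glutamine withdrawal that differed between the lines by a test of the difference itself (limma, 2 arrays in each of the 8 groups). The log2 response in DLD1 minus that in HCT116 was 0.92 for SPRED2, 0.71 for SPRED1, 0.67 for ETV4 and 0.33 for DUSP6, each larger in DLD1, and -0.77 for ETS1, larger in HCT116. The adjusted p-values were 0.00124, 0.00197, 0.00644, 0.0302 and 0.00775 in that order. For SPRED1 and SPRED2 the larger response was present in both DLD1 derivatives. For ETS1 the response of DLD1 Mut cells (2.28) exceeded that of HCT116 WT cells (1.88), so the lines' derivatives were not in separate ranges. The DUSP6 difference was lost without any 1 of 11 arrays.

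Within HCT116, 3 responses differed between Mut and WT cells by the interaction test. The log2 response in Mut minus that in WT cells was 1.62 for ETS1, 0.83 for DUSP5 and -0.97 for DUSP4 (adjusted p = 0.00222, 0.0216 and 0.0466), and the DUSP5 and DUSP4 calls were lost without any 1 of 5 and of 11 arrays. For DUSP4 this interaction also differed between the lines, by 1.82 (DLD1 minus HCT116, adjusted p = 0.0357), a test added after the values were seen and called in only 3 of the 16 runs without 1 array. The difference between Mut and WT cells also differed between the lines (DLD1 minus HCT116, the test again added afterwards). It was -2.25 for ETS1 with glutamine, and without glutamine -3.15 for ETS1, 2.23 for DUSP4, -0.80 for DUSP6 and -0.75 for DUSP5, the last called in 10 of 16 such runs. The leukocyte marker CD68 had log2 changes without glutamine of 1.20 ± 0.12 in HCT116 Mut and 0.96 ± 0.12 in HCT116 WT cells, and its part in these results was not tested.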

How the results depend on the processing

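Over 26 alternative settings, 58 called results of the 10 genes were rerun 1487 times. Other filters, probe set means, replicate blocks, trend and robust eBayes, separate lines and the 2-fold minimum left the log2 change as it was. So did leaving out an array outside the groups compared. A sign could therefore turn only in the remaining reruns. None changed sign, and 126 reruns in 35 results lost the call. Of the uncalled results, 6 gained a call at least once, and 47 of 1863 reruns turned sign. Requiring a change beyond 2-fold lowered the count of genes called for withdrawal from 7 to 4 in DLD1 Mut, from 7 to 4 in DLD1 WT, from 5 to 2 in HCT116 Mut, from 6 to 2 in HCT116 WT cells, from 7 to 2 on average and from 5 to 0 for the difference between lines. It lowered Mut minus WT with glutamine from 2 to 1 in DLD1 and from 1 to 0 in HCT116, and without glutamine from 3 to 0 in DLD1. It lowered the HCT116 interaction from 3 to 1 and the difference between lines with glutamine from 9 to 5. Calls over all genes fell at the same setting too, for withdrawal from 5268 to 1281, 4235 to 899, 5159 to 1226 and 3189 to 566 in the order above, from 7479 to 535 on average and from 2973 to 508 for the difference between lines. At the 2-fold minimum the calls over all genes for Mut minus WT with glutamine fell from 910 to 297 in DLD1 and from 507 to 138 in HCT116. Without glutamine they fell from 1610 to 345 in DLD1. Those for the HCT116 interaction fell from 1488 to 517, and for the difference between lines with glutamine from 7372 to 2054. With each line fitted separately, Mut minus WT with glutamine in HCT116 fell from 1 to 0 of the 10 genes and the HCT116 interaction from 3 to 1. Testing only genes above the median level raised Mut minus WT without glutamine in HCT116 from 3 to 5 of the 10 genes. Calls over all genes went from 3858 of 15676 to 4170 of 11198 in that comparison.

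Without each array in turn, withdrawal calls numbered 6 to 7 in DLD1 Mut, 6 to 7 in DLD1 WT, 3 to 5 in HCT116 Mut, 4 to 6 in HCT116 WT cells and 7 to 7 on average, and 4 to 6 for the difference between lines. Mut minus WT with glutamine ranged from 2 to 3 in DLD1 and 0 to 1 in HCT116, and without it from 1 to 3 and 2 to 4. The interaction ranged from 0 to 0 in DLD1 and 1 to 3 in HCT116, and the difference between lines with glutamine from 8 to 9. The share of all tested genes called in the same runs was 25.5% to 33.7%, 18.6% to 26.9%, 25.3% to 32.7% and 13.1% to 20% for withdrawal by derivative, 45% to 46.4% on average and 15.2% to 17.2% for the difference between lines. For Mut minus WT with glutamine it was 2.93% to 5.66% in DLD1 and 1.27% to 3.11% in HCT116, without glutamine 4.52% to 9.97% and 16.4% to 24.5%, for the interaction 0.0957% to 0.619% and 5.37% to 8.91%, and between lines with glutamine 42.5% to 46.9%.

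Same-numbered replicates did not deviate together: over 28 pairs of groups r ran from -0.0361 to 0.0334. With a replicate block over all arrays, 6 of 10 genes were called in DLD1 Mut and 4 in HCT116 Mut cells, and the HCT116 interaction was called for 2. Over all genes the same block gave 5148, 5075 and 1312 calls in that order, against 5268, 5159 and 1488 without it. In blocked fits these calls were lost: ETV5 in DLD1 Mut (adjusted p = 0.0546), SPRED1 in HCT116 Mut (0.0564), the DUSP6 line difference (0.0521) and the DUSP4 interaction (0.0546 and 0.0742).

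Counts over all genes moved most for the DLD1 interaction, from 129 to 46 with no filter, 328 above the median level, 76 and 22 with the replicate block over all arrays and within lines, 602 with trend and robust, 63 beyond 2-fold and 3 with separate lines. With separate lines HCT116 WT withdrawal went from 3189 to 2070, the HCT116 interaction from 1488 to 430, and Mut minus WT with glutamine from 910 to 599 in DLD1 and 507 to 89 in HCT116. For the last 2, trend and robust gave 1379 and 963. The causes were not tested.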
